A study of Sus scrofa with 8 samples.

Results

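The mitochondrial enzymes of fatty acid beta-oxidation were followed in pig back muscle through 10 genes chosen by name: CPT1B, CPT2, ACADVL, ACADL, ACADM, ACADS, HADHA, HADHB, ECHS1 and DECR1. A probe set was counted for a gene where its annotation gave exactly 1 gene symbol equal to that name. All 10 genes had one, with 13 probe sets in all, out of 6765 genes and 24123 probe sets on the array. HADHB was read by 3 probe sets and ACADVL by 2, and 9 of the 10 genes were bright enough to be tested.

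Beta-oxidation shortens fatty acids in the mitochondrial matrix and is a main source of energy for resting and slow-twitch muscle. Long-chain acyl groups enter the matrix as carnitine esters through the carnitine palmitoyltransferases. They are then cut in repeated rounds of dehydrogenation, hydration, a further dehydrogenation and thiolysis, and the electrons of the first step pass through the electron transfer flavoprotein to the respiratory chain.

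Back muscle, the longissimus dorsi, came from 4 Korean native pigs aged 7 months and 4 Yorkshire pigs aged 6 months. The Korean native pig is a local breed of Korea and Yorkshire a widely farmed commercial breed. Total RNA of each biological replicate went to 1 one-colour Affymetrix array, so 8 arrays were compared, and the study asked which genes differ between the muscles of the breeds. All pigs were kept under the same conditions, per the labels' protocols. Age and breed cannot be told apart. In whole muscle, fewer cells of a type and less RNA per cell cannot be told apart either.

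Values are deposited signals, a brightness in arbitrary units, already brought to the same overall level on every array. Markers of skeletal muscle fibres were bright in both breeds: creatine kinase, CKM, had signals of 56602 to 96146 in Korean native pigs, against 77078 to 118954 in Yorkshire pigs. The liver marker ALB had signals of 8.81 to 158 in Korean native pigs, against 8.85 to 180 in Yorkshire pigs. The 95th percentile of negative control probe sets was 91.5. Of the other liver markers, TTR had 8.28 to 198 in Korean native pigs, against 9.33 to 186 in Yorkshire pigs. APOA1 was well above that limit, at 477 to 1260 in Korean native pigs, against 890 to 1317 in Yorkshire pigs. Replicates 1 and 3 of both breeds had bright hybridisation controls and replicates 2 and 4 dim ones. Korean native pig 1 and Yorkshire 3 stood apart in the log2 ratio of 3' to 5' signal of housekeeping transcripts, a measure of RNA integrity and labelling, with values of 3.37 and 3.07, while the remaining 6 arrays lay between 0.88 and 1.74.

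Over the 8 arrays ACADM was the brightest of the 9 tested enzymes, with a mean signal of 16675. ECHS1 at 6089, HADHB at 4894, HADHA at 3409, ACADVL at 3152 and ACADL at 2363 followed, and DECR1 at 1019, ACADS at 1005 and CPT1B at 671 were the dimmest. ACADM led on 8 of 8 arrays. Neighbours changed places most often between HADHA and ACADVL and between DECR1 and ACADS, where the brighter on average was brighter on 5 of 8 arrays. ECHS1 was brighter than HADHB on 7 arrays, HADHB brighter than HADHA on 6, and CPT1B dimmer than ACADS on 7. Brightness depends on the probes as well as on the transcript, so this is an order of signals and not of transcript amounts.

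**Figure D1:**
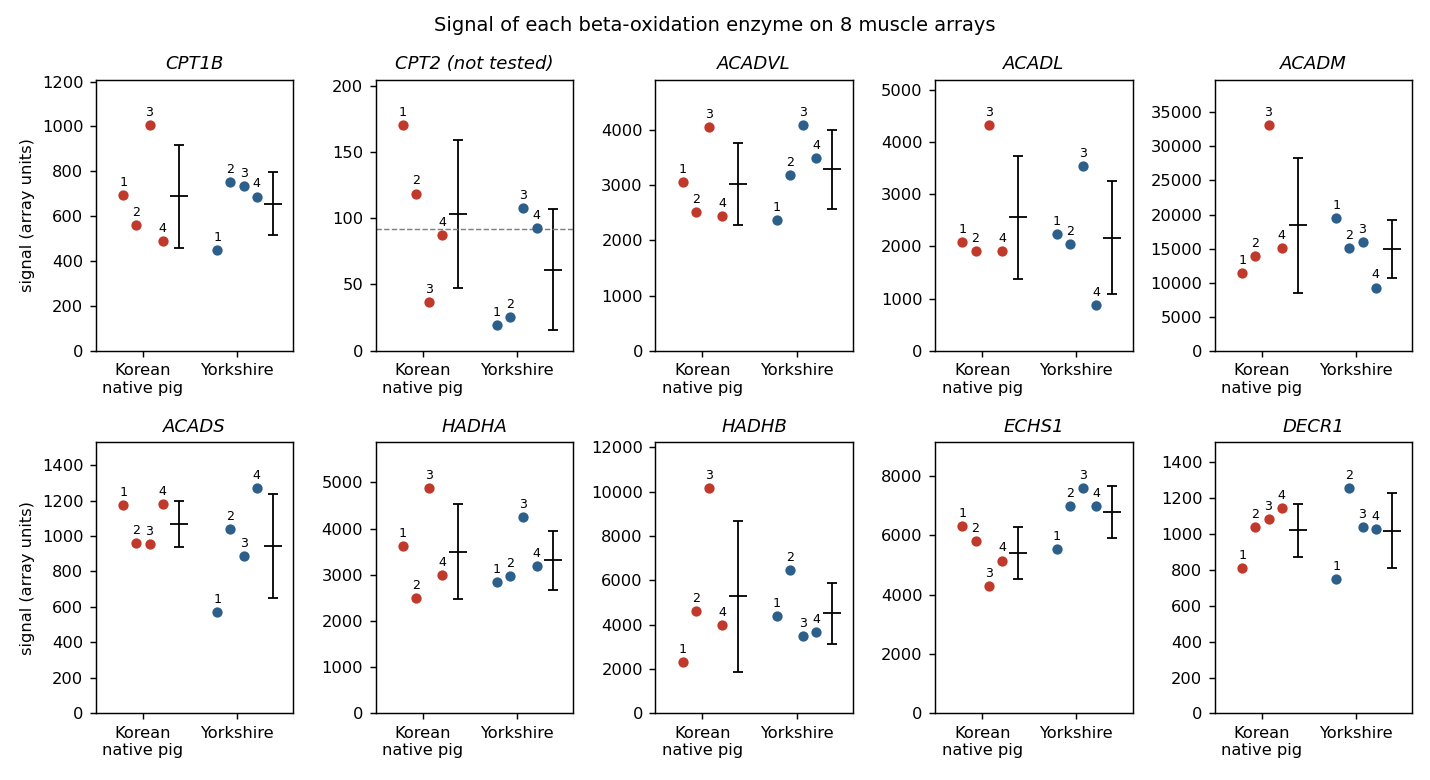
Deposited signal (array units, linear axis from 0, a scale of its own per panel) of each enzyme, 1 point per array numbered by replicate, Korean native pigs left of Yorkshire pigs, with mean and SD as bars and the 95th percentile of the negative controls as a dashed line for CPT2. The breeds overlap in all 10 panels, and Korean native pig 3 is the highest point for CPT1B, ACADL, ACADM, HADHA and HADHB.

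At the carnitine step CPT1B showed no breed difference that could be told from the spread, and CPT2 was not tested. CPT1B, the muscle form of the outer-membrane carnitine palmitoyltransferase and the controlled entry point of long-chain fatty acids, had signals of 693, 562, 1007 and 489.6 in Korean native pigs 1 to 4, against 448, 750.0, 734 and 687 in Yorkshire pigs 1 to 4. The highest array was a Korean native pig and the lowest a Yorkshire pig, and the breeds overlapped. Means were 688 ± 229 in Korean native pigs, against 655 ± 140 in Yorkshire pigs (SD, n = 4). The log2 difference, Korean native pig minus Yorkshire in log2(signal + 32) here and below, was 0.04 (95% interval -0.52 to 0.61). CPT2, the inner-membrane transferase that hands the acyl group back to coenzyme A, was near background, with signals of 170.5, 119, 37.0 and 87.0 in Korean native pigs, against 19.2, 25.5, 108 and 92.7 in Yorkshire pigs. On 4 of 8 arrays it lay under that percentile of the negative controls. Its mean log2(signal + 32) was under the limit set for testing, which corresponds to a signal of 98.6. It was therefore not tested and its breed order is unknown.

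The 4 acyl-CoA dehydrogenases, which catalyse the first oxidation for successive chain lengths, differed in which arrays were high. ACADVL, the membrane-bound enzyme for very long chains, had signals of 3054, 2522, 4052 and 2442 in Korean native pigs, against 2377, 3188, 4093 and 3490 in Yorkshire pigs. Korean native pig 3 and Yorkshire 3 were the highest, and the breeds overlapped. The means were 3017 ± 741 in Korean native pigs, against 3287 ± 714 in Yorkshire pigs (SD, n = 4), a log2 difference of -0.13 (95% interval -0.61 to 0.36).

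ACADL, the long-chain enzyme, had signals of 2086, 1905, 4326 and 1915 in Korean native pigs, against 2229, 2044, 3533 and 867 in Yorkshire pigs. Korean native pig 3 and Yorkshire 3 were high, Yorkshire 4 was low, and the remaining arrays lay close together. Among the tested enzymes ACADL had the widest spread over arrays, with a log2 SD above that of 89.6% of all tested genes. Its log2 difference was 0.30 (95% interval -0.54 to 1.15). Without Yorkshire 4 it was -0.07, and without Korean native pig 3 it was 0.02.

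ACADM, the medium-chain enzyme, had signals of 11428, 13959, 33162 and 15147 in Korean native pigs, against 19485, 15020, 15919 and 9281 in Yorkshire pigs. Korean native pig 3 stood above all other arrays and Yorkshire 4 below them. Means were 18424 ± 9947 in Korean native pigs, against 14926 ± 4229 in Yorkshire pigs (SD, n = 4), and the log2 difference of 0.22 (95% interval -0.48 to 0.93) became -0.10 without Korean native pig 3. ACADS, the short-chain enzyme, had signals of 1175, 961, 953 and 1182 in Korean native pigs, against 571, 1037, 886 and 1273 in Yorkshire pigs. Here Yorkshire 4 was highest and Yorkshire 1 lowest, with the Korean native pigs between them. The log2 difference of ACADS was 0.22 (95% interval -0.30 to 0.75), and it was 0.01 without Yorkshire 1.

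The mitochondrial trifunctional protein carries the later steps for long chains. Its alpha subunit, HADHA, holds the hydratase and the hydroxyacyl-CoA dehydrogenase, and its beta subunit, HADHB, the thiolase. HADHA had signals of 3618, 2501, 4889 and 3004 in Korean native pigs, against 2841, 2972, 4256 and 3196 in Yorkshire pigs. Replicate 3 was the highest array of each breed, and the breeds overlapped. Means were 3503 ± 1031 in Korean native pigs, against 3316 ± 643 in Yorkshire pigs (SD, n = 4), with a log2 difference of 0.05 (95% interval -0.44 to 0.55).

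HADHB, read from the brightest of its 3 probe sets, had signals of 2338, 4623, 10179 and 3987 in Korean native pigs, against 4384, 6473, 3485 and 3682 in Yorkshire pigs. Both the highest and the lowest array were Korean native pigs, 3 and 1. Means were 5282 ± 3404 in Korean native pigs, against 4506 ± 1367 in Yorkshire pigs (SD, n = 4), and the log2 difference was 0.07 (95% interval -0.74 to 0.88). The second HADHB probe set gave -0.01 and the third 0.17. Without Korean native pig 3 the value from the brightest probe set was -0.31.

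ECHS1, the short-chain enoyl-CoA hydratase of the second step, had the lowest p among the enzymes. Its signals were 6322, 5809, 4295 and 5151 in Korean native pigs, against 5545, 6985, 7608 and 7000 in Yorkshire pigs. The highest 3 arrays were Yorkshire pigs and the lowest was Korean native pig 3, but Yorkshire 1 lay within the range of the Korean native pigs. Means were 5394 ± 876 in Korean native pigs, against 6784 ± 876 in Yorkshire pigs (SD, n = 4). Its limma adjusted p was 0.999, for a log2 difference of -0.33 with a 95% interval of -0.73 to 0.06 and an SE of 0.18. It was -0.32 within the arrays of bright hybridisation controls and -0.35 within the dim ones, 2 arrays per breed in each. Leaving out 1 array at a time gave -0.43 to -0.23.

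Read from the brightest probe set of each gene, mitochondrial and muscle fibre markers mostly lay on the same side as ECHS1. Of 6 tested mitochondrial content genes 6 were below 0, with a median log2 difference of -0.17 and a summed signal of 84450 to 110542 in Korean native pigs, against 105337 to 131266 in Yorkshire pigs. Fast fibre genes had a median of -0.32, with 6 of 6 below 0. Slow and oxidative fibre genes had a median of -0.23, with 7 of 8 below 0. Other tested probe sets of the genes in these lists went both ways. ATP2A2 was at 0.44, 0.70 and 0.38 there, TPM3 at 0.17 and 0.46 and CS at 0.20. SDHA was at -0.16, VDAC1 at -0.20 and ATP2A1 at -0.35. No gene of these lists passed the threshold, and their part in the ECHS1 value was not tested.

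DECR1, the dienoyl-CoA reductase that lets polyunsaturated acyl chains enter the cycle, had the smallest breed difference of the 9. Its signals were 811, 1037, 1085 and 1146 in Korean native pigs, against 747, 1258, 1038 and 1028 in Yorkshire pigs. Replicate 1 was the lowest array in each breed. Means were 1020 ± 146 in Korean native pigs, against 1018 ± 209 in Yorkshire pigs (SD, n = 4), and the log2 difference was 0.01 (95% interval -0.44 to 0.47). Its spread over arrays exceeded that of 19.6% of tested genes, the lowest share among the 9 enzymes.

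Set side by side, 7 of the 9 tested enzymes had log2 differences above 0 and 2 below, with a median of 0.05 and a range of -0.33 to 0.30. All 9 had limma adjusted p = 0.999. By limma 0 of 9 passed the adjusted threshold of 0.05, where 0.00% of 5331 tested genes passed, and 0 of 9 were under an unadjusted p of 0.05, where 3.43% of genes were. In 0 of 9 were the breeds without overlap, against 2.25% of genes. Over all tested genes 49.6% were above 0, with a median of -0.00. The median size of the difference, sign left aside, was 0.13 for the enzymes and 0.17 for all genes. Across the enzymes the 95% intervals reached from -0.74 to 1.15, from the lower bound of HADHB to the upper bound of ACADL.

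**Figure D2:**
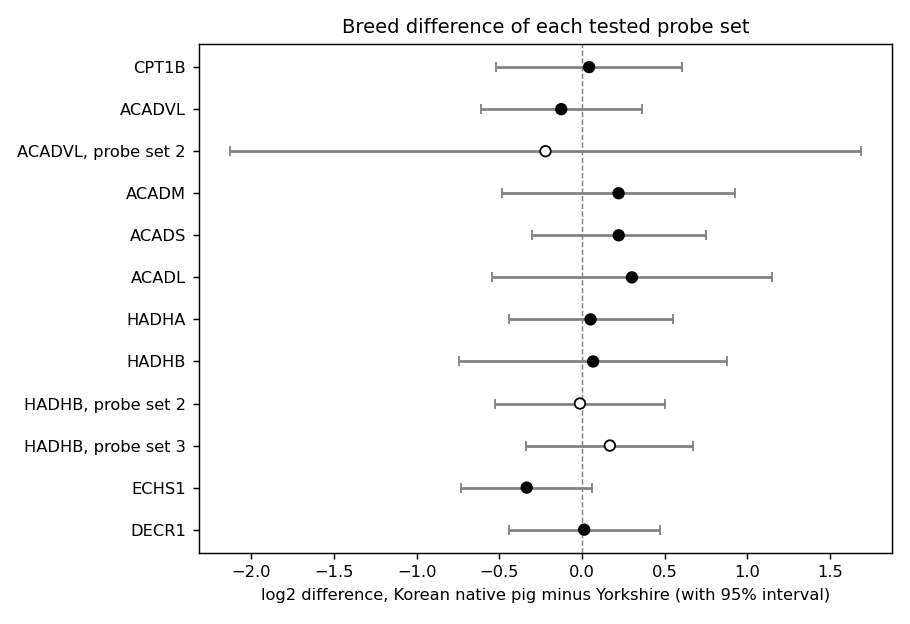
Log2 difference of each tested probe set, Korean native pig minus Yorkshire, with its 95% interval from limma, filled points for the brightest probe set of a gene and open points for the others. All intervals include 0, and among the filled points ECHS1, at -0.33, lies farthest below it.

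The balance of directions depended on single arrays. Without Korean native pig 3, 2 of 9 enzymes were above 0 and 7 below, with a median of -0.12, and CPT1B, ACADM, HADHA, HADHB and DECR1 changed sign. Without Yorkshire 1, 4 were above 0 and 5 below. Directions also differed between the brightness classes: 8 of 9 were above 0 among the bright arrays, which include Korean native pig 3, and 2 of 9 among the dim. CPT1B was at 0.52 in the bright class and -0.43 in the dim class, and ACADVL at 0.17 and -0.42. ECHS1 was below 0 and ACADL and ACADM above 0 in both classes.

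Korean native pig 3 had the highest signal of the 8 arrays for 5 of the 9 tested enzymes: CPT1B, ACADM, ACADL, HADHA and HADHB. Of all tested genes 11.8% were highest on that array. Its signal was 2.21 times the median of the other 7 arrays for ACADM, 2.12 times for ACADL, 1.63 times for HADHA and 1.46 times for CPT1B. All 3 HADHB probe sets were highest there, at 2.55, 1.49 and 1.86 times that median. ACADVL was the second highest on this array, DECR1 the third highest, ACADS the sixth, and ECHS1 was the lowest of all, at 0.679 times the median. The mean log2 deviation of the 9 enzymes from their own means was 0.49 on Korean native pig 3 and -0.23 to 0.17 on the other 7 arrays.

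Of the 45 tested genes in 7 lists around the cycle, 7 were also highest in that muscle, or 15.6%, against 11.8% of all tested genes. They were 2 of 9 in activation and the carnitine shuttle, 3 of 13 among other matrix enzymes, 1 of 3 in electron transfer and 1 of 7 peroxisomal genes, with 0 in the lists of regulators, malonyl-CoA control and propionyl-CoA and ketone body enzymes. The last list had its lowest mean deviation there, at -0.21. SLC25A20, the carnitine-acylcarnitine carrier of the inner membrane, reached 1947 there and 893 to 1400 elsewhere. ETFDH, the oxidoreductase that passes the electrons on to ubiquinone, reached 6798 there. The enoyl-CoA isomerases ECI1 and ECI2, which handle unsaturated chains, were highest there too. Mitochondrial content genes deviated by -0.04 on that array, fast fibre genes by -0.12 and slow and oxidative fibre genes by 0.25. Macrophage and lymphocyte markers deviated by -0.32. Each of these means was within the range of the other arrays. The mitochondrial genes went both ways: ATP5B, at 18665, and ATP5A1, at 18242, were lowest there. CYCS, at 13163, and SDHA, at 10187, were the highest among Korean native pigs. Fibroblast markers had their lowest mean deviation there, at -0.36, but went both ways: LUM was at 511, against 2029 to 3409 elsewhere, while COL3A1, at 720.2, was highest there. The list had summed signals over 4 of 5 listed genes of 7764 to 12670 in Korean native pigs, against 9964 to 16440 in Yorkshire pigs. Adipocyte markers, of which 8 of 10 listed were tested and none was listed at 0, deviated by -0.19 and also went both ways. LIPE, at 645, was highest there, and SCD, at 336, was lowest, against 1170 to 9194 elsewhere. The adipocyte markers had summed signals of 6658 to 20607 in Korean native pigs, against 8146 to 20596 in Yorkshire pigs. The ratio of 3' to 5' signal on that array was 1.41, within the range of the other arrays. The part of fibre type and cell mixture in the pattern was not tested.

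**Figure D3:**
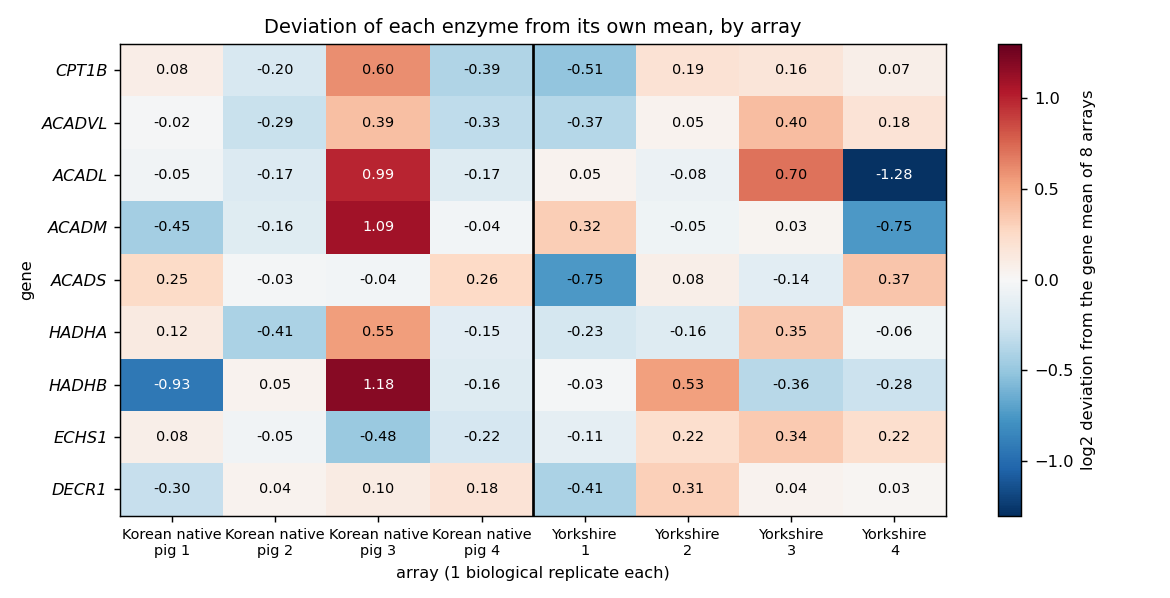
Log2 deviation of each tested enzyme from its own mean over 8 arrays, 1 column per array with Korean native pigs on the left. Korean native pig 3 is raised for 7 of the 9 enzymes and lowered for ECHS1 and ACADS, with 1.18 for HADHB and -0.48 for ECHS1.

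The lowest array differed between enzymes. Yorkshire 1 was the lowest array for CPT1B, ACADVL, ACADS and DECR1, and Yorkshire 4 for ACADM and ACADL. Korean native pig 1 was lowest for HADHB, Korean native pig 2 for HADHA and Korean native pig 3 for ECHS1. On Yorkshire 4 the log2 deviation was -1.28 for ACADL and -0.75 for ACADM, while ACADS was there at 0.37, its highest.

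Across the 8 arrays the enzymes varied together in part. Over the 36 pairs of tested enzymes the median Pearson r of log2 signal was 0.26, with a range of -0.72 to 0.90. Of these 28 were above 0, where 50.7% of all gene pairs were. Without Korean native pig 3 only 20 of 36 were above 0, near the 50.8% of gene pairs. Over all 14207115 pairs of tested genes the median was 0.01. With the breed means removed the median over the enzyme pairs was 0.32, with the brightness class means removed it was 0.34, and without Korean native pig 3 it was 0.13. Of the 36 pairs 5 had r above 0.7, or 13.9%, against 3.71% of gene pairs. All pairs share arrays, scaling and RNA quality, and pairs that share an enzyme are not independent.

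With all 8 arrays and the brightest probe set of each gene, the pair of highest r was CPT1B and ACADVL. These are the entry step and the first dehydrogenase for the longest chains. Their r was 0.90 and Spearman's rho 0.83 (exact permutation test, two-sided p = 0.0022 for r and 0.0154 for rho, adjusted over 36 pairs 0.0795 and 0.33). It was 0.85 without Korean native pig 3 and Yorkshire 1, the arrays farthest from the median of CPT1B. Within breeds it was 0.93 and within brightness classes 0.89. With the dimmer ACADVL probe set the values did not hold: r was 0.11 for CPT1B and -0.14 for HADHA. Among probe set pairs, ACADL with the second HADHB probe set had r = 0.899 and ACADM with the third 0.898. Both lay slightly above the 0.897 of CPT1B and ACADVL. Without Korean native pig 3, where ECHS1 is lowest, ECHS1 had higher r with ACADVL, at 0.96, and with CPT1B, at 0.91, than the 0.88 of CPT1B and ACADVL. With all 8 arrays those ECHS1 pairs had r = 0.22 and -0.02. ACADVL and HADHA, which act in turn on long chains at the inner membrane, had r = 0.85 and rho = 0.76 (exact permutation p = 0.0094 and 0.0368, adjusted 0.170 and 0.33), and r = 0.80 without Yorkshire 1 and Yorkshire 3. CPT1B and HADHA had r = 0.78 and rho = 0.67 (exact permutation p = 0.0241 and 0.0831, adjusted 0.217 and 0.498), and r = 0.55 without the same 2 arrays as the first pair.

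ACADM had high and low r with several enzymes, and some of these values rested on its most extreme arrays, Korean native pig 3 and Yorkshire 4. ACADM and ACADL had r = 0.83 and rho = 0.81 (exact permutation p = 0.0173 and 0.0218, adjusted 0.207 and 0.33), but r was 0.27 without those arrays and 0.74 without Korean native pig 3 alone. ACADM and HADHB, read from its brightest probe set, had r = 0.77 and rho = 0.48 (exact permutation p = 0.0342 and 0.243, adjusted 0.246 and 0.673), and r = 0.52 without those arrays. With the second HADHB probe set r was 0.75 and rho 0.74, and r was 0.14 without those arrays. With the third r was 0.90 and rho 0.86, and r was 0.36 without them. ACADM and ECHS1 ran opposite ways, with r = -0.72 and rho = -0.52 (exact permutation p = 0.0436 and 0.197, adjusted 0.262 and 0.673), and r = -0.15 without those arrays. For ACADM and ACADS the negative r was larger without them, at r = -0.83, where all 8 arrays gave r = -0.51 and rho = -0.76 (exact permutation p = 0.195 and 0.0368, adjusted 0.629 and 0.33). None of the 36 pairs passed an adjusted p of 0.05, while 6 had an unadjusted p for r under it.

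**Figure D4:**
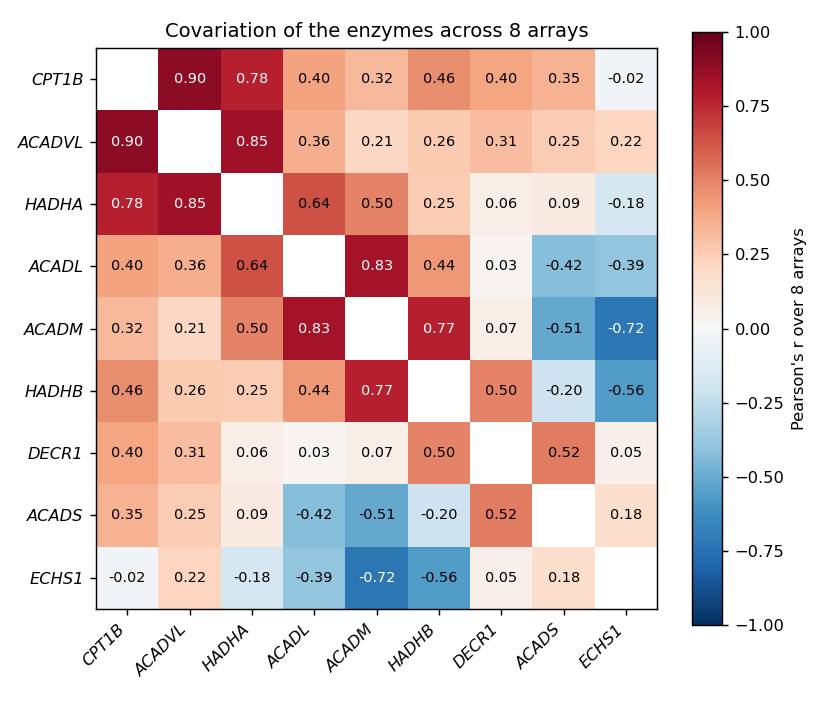
Pearson r of log2 signal over 8 arrays for each pair of the 9 tested enzymes, each read from its brightest probe set. CPT1B, ACADVL and HADHA form a block of 0.78 to 0.90, and ECHS1 has its lowest value, -0.72, with ACADM.

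The subunits of the trifunctional protein gave a different answer by probe set. HADHA and HADHB have 0 protein-coding genes between them in RefSeq's Sscrofa11.1 gene list. With the brightest HADHB probe set their r was 0.25 and rho -0.24 (exact permutation p = 0.554 and 0.582, adjusted 0.808 and 0.967), and r was -0.69 without Korean native pig 3 and Yorkshire 3. With the second probe set r was 0.74 and rho 0.45 (exact permutation p = 0.0352 and 0.268, adjusted over 66 probe set pairs 0.193 and 0.588), and r was 0.0035 without the same arrays. With the third probe set r was 0.59 and rho 0.14 (exact permutation p = 0.122 and 0.752, adjusted 0.385 and 0.919), and r was -0.36 without them.

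Probe sets of 1 gene parted on the arrays of high 3' to 5' ratio. The brightest HADHB probe set minus the second was -0.88 log2 units on Korean native pig 1 and -0.70 on Yorkshire 3, whereas it was 0.01 to 0.65 elsewhere. For ACADVL the dimmer probe set had signals of 9.50, 554, 1134 and 594 in Korean native pigs, against 362, 1145, 154 and 347 in Yorkshire pigs. On Korean native pig 1 the dimmer probe set was below the negative control limit of 91.5, so its difference from the brighter one is only bounded there, at -4.64 log2 units or lower. The dimmer minus the brighter was -4.47 on Yorkshire 3, whereas it was -3.22 to -1.45 elsewhere. The dimmer probe set had a log2 difference between breeds of -0.22 (95% interval -2.13 to 1.69). The ACADVL probe sets had r = -0.03 and rho = -0.10 with each other. The dimmer one and the brightest HADHB probe set had r = 0.87 and rho = 0.90 (exact permutation p = 0.0074 and 0.0046, adjusted over 66 probe set pairs 0.0966 and 0.151), and r = 0.85 without Korean native pig 1 and Yorkshire 3. The part of RNA quality in these values was not tested. With both arrays left out, HADHB was at 0.28 and ACADVL at -0.03 between breeds.

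**Figure D5:**
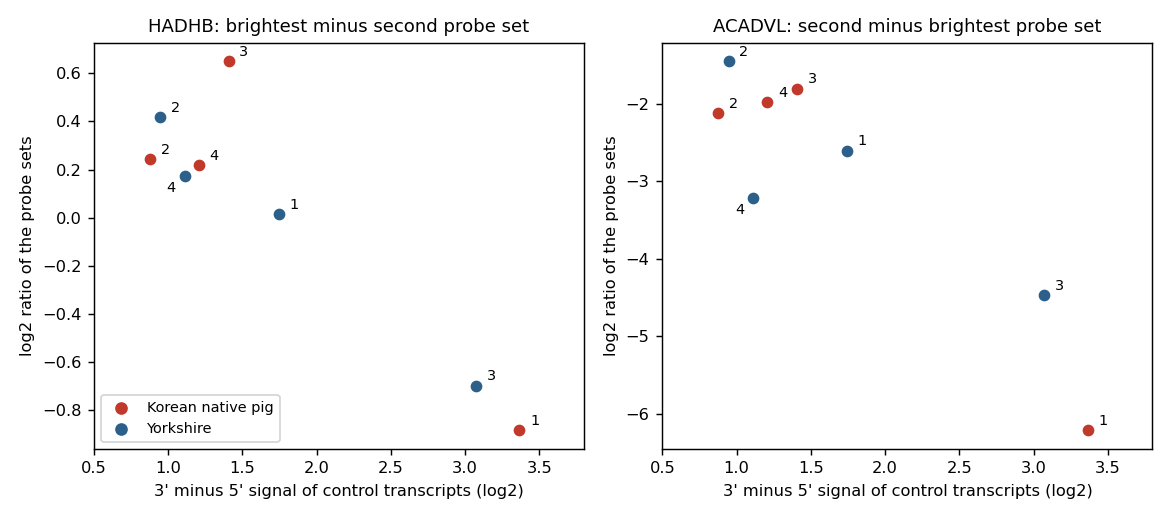
Log2 difference between probe sets of HADHB and of ACADVL (vertical axes) against the log2 ratio of 3' to 5' signal of housekeeping transcripts (horizontal axis), 1 numbered point per array. Korean native pig 1 and Yorkshire 3, at 3.37 and 3.07, have the lowest values in both panels. The ACADVL point of Korean native pig 1 is drawn from a signal of 9.50, under the negative control limit, and stands for -4.64 or lower.

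Genes around the cycle were read from 7 lists, and limma called 0 of their tested members at an adjusted p of 0.05. Of 9 fatty acid activation and carnitine shuttle genes 6 were above 0 and 3 below, with a median log2 difference of 0.26. Within it SLC25A20 was at 0.34, with 1374 ± 418 in Korean native pigs, against 1054 ± 166 in Yorkshire pigs (SD, n = 4), and the acyl-CoA synthetase gene ACSL3 at -0.35. The 13 other matrix enzymes split 6 and 7 with a median of -0.02. In that list ECI1 was at 0.30 and ECI2 at 0.33. Without Korean native pig 3 SLC25A20 and ECI1 were each at 0.16, and ECI2 was at 0.13 without Yorkshire 1 and 0.54 without Yorkshire 4. The list also holds branched-chain enzymes such as IVD and the peroxisomal DECR2.

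The 3 genes of electron transfer from the dehydrogenases lay near 0, with ETFB at 0.03 and ETFDH at 0.05. Of 7 peroxisomal genes 6 were above 0 and 1 below, with a median of 0.19. SCP2, a sterol carrier and thiolase, was at 0.46 and the acyl-CoA oxidase ACOX3 at 0.31. SCP2 was at 0.22 without Yorkshire 4, and ACOX3 at 0.14 without Yorkshire 1 and 0.52 without Yorkshire 3. The propionyl-CoA and ketone body list had 2 above 0 and 3 below, with OXCT1, which starts the use of ketone bodies, at 0.40 and MUT, methylmalonyl-CoA mutase, at -0.32. A second OXCT1 probe set was at 1.00, with limma adjusted p = 0.999. OXCT1 was at 0.21 without Yorkshire 3 and 0.61 without Yorkshire 2, and MUT at -0.11 without Korean native pig 3.

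Among 6 tested regulators 2 were above 0 and 4 below. PPARGC1A, a coactivator that drives mitochondrial and oxidative genes, had signals of 510, 745, 685 and 694 in Korean native pigs, against 818, 1428, 3477 and 683 in Yorkshire pigs. Yorkshire 3 was far the highest, and Yorkshire 4 overlapped the Korean native pigs. Its log2 difference was -0.96 (95% interval -1.85 to -0.06, limma adjusted p = 0.999), and -0.49 without Yorkshire 3. The mitochondrial deacetylase SIRT3 was at 0.46, with 0.17 without Yorkshire 2, 0.79 without Yorkshire 3 and 1.02 within the dim class. For malonyl-CoA, the inhibitor of CPT1B, the kinase subunits PRKAA1 and PRKAA2 were at 0.20 and -0.32. Without Yorkshire 3 these were -0.05 and -0.62, and PRKAA2 was at -0.13 without Yorkshire 1. PPARA, PPARG, RXRA and ACACA were too dim to test.

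The genes most like the mean pattern of the 9 enzymes over the 8 arrays, each enzyme standardised first, were SORD at r = 0.98, ATPAF1 and ZNF771 at 0.92, and LRRC8A, SELENBP1 and SPINK4 at 0.90. SORD, the sorbitol dehydrogenase gene, had signals of 438, 381, 649 and 385 in Korean native pigs, against 341, 524, 525 and 414 in Yorkshire pigs. It was highest on Korean native pig 3 and lowest on Yorkshire 1, a match that follows from its choice by this pattern. For 0 of the 9 enzymes taken singly was another enzyme the gene of highest r. CPT1B ranked eleventh among 5330 genes for ACADVL, and ACADVL seventh for CPT1B. For ECHS1 the nearest enzyme over all 8 arrays, ACADVL, ranked 1954 with r = 0.22, a value that became 0.96 without Korean native pig 3. No test was made of these ranks.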

How the data were processed

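Per the labels' protocols, biotin-labelled RNA (Trizol extraction) of 8 muscle samples was hybridised. Each array's deposited column holds 1 linear intensity per probe set. The submitters' processing notes name GCOS 1.3, while summarisation method and scaling target were not given in the sources used here. After trimming 2% of values at each end the mean was 500.1 to 500.2 on each array, so differences are relative to the other probe sets of an array. Of 24123 probe sets, 124 controls and the dimmest 40% of the rest by mean log2(signal + 32) were left out, which left 14399. That limit corresponds to a signal of 98.6. A fold change is on the log2(signal + 32) scale, where changes of low signals come out too small.

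Gene names came from GEO's platform annotation, with 1 symbol for 10099 probe sets, several for 198 and none for 13826. Of these, 9989 were found in the RefSeq gene table of Sscrofa11.1 and 0 symbols changed. Where a gene had several probe sets, the one of highest mean signal stood for it, which gave 5331 tested genes.

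Breeds were compared as Korean native pig minus Yorkshire in limma 3.58.1 under R 4.3.3, by lmFit and then eBayes with trend and no covariate, with Benjamini-Hochberg adjustment over all 14399 probe sets. Precision is limited by the number of arrays, with a median standard error of 0.28. Correlations were tested by exact permutation over 40320 pairings with numpy 2.4.6 in Python 3.11.15, adjusted over 36 gene pairs or 66 probe set pairs. Ranks for rho came from scipy 1.17.1. The labels call the samples biological replicates of a breed, and the p-values measure the spread between them. The alternatives were other pseudocounts, normalisations, filters, variance models, blocks and array weights, subsets of arrays, and other probe sets.

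Named genes were all probe sets of the enzymes, the 2 of smallest p in each context list, and the 6 genes most like the mean pattern. SLC25A20, ETFDH, ECI1 and ECI2 on Korean native pig 3, and the dim regulators and ACACA, were named after their values were seen. So were ALB, APOA1, TTR, COL3A1, LIPE, SCD, IVD and DECR2. The same holds for ATP5B, ATP5A1, CYCS and SDHA on Korean native pig 3, and for the fibre and mitochondrial genes with other probe sets. The members and lists were chosen with earlier results of these data known.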

Additional observations from a re-analysis of the deposited data

Results flagged for a closer look

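Of 54 groups of 4 arrays examined, 4 held an array far from the other 3 by Dixon's criterion, and chance alone gives about 5% of groups. In Korean native pigs replicate 3 was the distant array 3 times: ACADL at 4326 against 1905 to 2086 on the other 3, the third HADHB probe set at 7196 against 3625 to 3875, and ETFDH at 6798 against 3083 to 3405. In Yorkshire pigs CPT1B was low on replicate 1, at 448 against 687 to 750.0 on the other 3. The 3 high values share 1 RNA sample. Their cause was not tested.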

How the results depend on the processing

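In each of the 22 alternatives to the main setting that gave this count, 0 of the 9 tested enzymes passed the adjusted threshold, and ECHS1 was below 0 in each of them. Of 200 alternative values for the enzymes 179 kept their direction and 21 turned. DECR1 was at -0.020 after quantile normalisation. HADHB was at -0.024 with array quality weights and, in an alternative chosen after seeing the data, at -0.012 from its second probe set. Within the bright arrays ACADVL was at 0.17 and SIRT3 at -0.10. Within the dim arrays CPT1B was at -0.43, ACADS at -0.11, HADHA at -0.17, HADHB at -0.18, DECR1 at -0.059, ETFB at -0.41, ETFDH at -0.089, PRKAA1 at -0.11 and MUT at 0.18, and the propionyl-CoA and ketone body median was 0.18. Without the pair of arrays of highest 3' to 5' ratio ETFB was at -0.092 and PRKAA1 at -0.088. With the mean of all probe sets of a gene, the activation and shuttle median was 0.030 and the regulator median -0.18. Leaving out 1 array at a time gave -0.15 to 0.18 for CPT1B, -0.10 to 0.41 for ACADM, -0.075 to 0.59 for ACADL, -0.12 to 0.20 for HADHA, -0.31 to 0.39 for HADHB, -0.12 to 0.12 for DECR1, -0.081 to 0.20 for ETFB, -0.21 to 0.19 for ETFDH and -0.047 to 0.39 for PRKAA1. It gave -0.26 to -0.051 for the propionyl-CoA and ketone body median and 0.11 to 0.33 for the median r between enzymes, lowest without Yorkshire 1. With the replicate block 1 probe set passed, and it was no enzyme of the pathway. Arrays of the same number correlated at -0.04 to 0.31 in their deviations from the breed means, and 4 of 8 correlated best with their own number. These values do not decide whether the numbers mark pairs. The labels do not say that they do, so the numbers were not taken as pairs. The causes of these shifts were not tested. The 4 arrays per breed and dim signals, as for CPT2, limit what could be detected.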
